A study of Mus musculus with 8 samples.

Results

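Acyl-CoA synthetases and thioesterases add coenzyme A to fatty acids or take it off again, and 10 of their genes were followed through the accessibility lists of mouse liver, namely Acsl1, Acsl3, Acsl4, Acsl5, Acsm1, Acsm3, Acsm5, Acot1, Acot2 and Acot12. For each of these 10 of the 21755 protein-coding genes on chromosomes 1 to 19 and X, every region was taken that overlapped the gene body or lay within 10 kb of it. The rule itself uses no measured value, but the 10 genes were chosen with earlier results of these data known. The lists come from ATAC-seq, in which a transposase inserts sequencing adapters wherever chromatin is open, on nuclei of frozen liver from adult mice labelled C57BL/6, which the study's methods give as C57BL/6J. There were 4 libraries labelled control, with cre in their titles, and 4 labelled Alb-D2KO, in which Cre recombinase under the albumin promoter inactivates a floxed Dio2 in hepatocytes and leaves it in the other cells of the liver. Dio2 encodes the deiodinase D2, which makes active thyroid hormone inside cells.

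The authors called open regions once per genotype on grouped libraries and kept the regions of one genotype that overlapped none of the other. The first list holds 8031 regions that were called in control liver without a counterpart in the Alb-D2KO call, named RCAs for reduced chromatin accessibility. The second holds 250 regions called in Alb-D2KO liver without a counterpart in control. The size of a region is its area, the area under the curve of −log10 p along it, as the peak caller wrote it. Its −log10 q is that of its summit. Because the calls are grouped, no value has a replicate error, no test between mice could be made, and the depth of the libraries is unknown. The lists hold only regions that differed, so the labelled tissue could not be checked against marker genes.

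A fatty acid must be joined to coenzyme A before it can be oxidised or built into triglycerides and phospholipids. Acyl-CoA synthetases carry out that joining, the Acsl enzymes on long chains and the mitochondrial Acsm enzymes on medium chains, and acyl-CoA thioesterases (Acot) release the free acid again. In the liver these opposed reactions set how much acyl-CoA is at hand for oxidation and for lipid synthesis. Fatty acids are also ligands of PPARα, a nuclear receptor that binds repeats of AGGTCA-like words.

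RCAs lay at 6 of the 10 genes, Acsl1, Acsl3, Acsm1, Acsm5, Acot1 and Acot2, against 25.3% of all protein-coding genes. The count depended on the size of the regions. With an area of at least 300 it was 2 of the 10 (Acsl1 and Acsm5) against 13.0% of protein-coding genes, where the shares of genes of similar length add up to 1.38 of 10. With a −log10 q of at least 3 it was 3 of the 10 (Acsl3, Acsm5 and Acot2) against 19.8%, where those shares add up to 2.10 of 10. Without such a limit, Acsl4, Acsl5, Acsm3 and Acot12 had no RCA within 10 kb. Acsm5 had 3, Acot2 had 2 and the others 1 each, which made 9 gene-region pairs from 8 distinct regions, since 1 region between Acot2 and Acot1 counted for both. No region of the Alb-D2KO list lay within 10 kb of any of the 10, where 1.02% of protein-coding genes had one. The nearest of that kind was 1143 kb from Acsl3. The nuclei came from whole liver, so fewer hepatocytes and less open chromatin per hepatocyte cannot be told apart.

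Sequence is shown for 6 of the 8 regions, those of the Acsm and Acot clusters, because the longest rows of consecutively numbered RCAs at the 10 genes lie there, 5 and 6 in length. The RCAs of Acsl3 and Acsl1 stand in rows of 3 and 2. Each is the plus strand of mm10 (GRCm38) around the summit, at most 201 bases, cut at the edge of the region and before any untranslated or coding exon, and was read from the RefSeq genome of that build. Capitals mark a match to a motif named in the label.
Acsm5 upstream region (CCAAT), chr7:119522008-119522196: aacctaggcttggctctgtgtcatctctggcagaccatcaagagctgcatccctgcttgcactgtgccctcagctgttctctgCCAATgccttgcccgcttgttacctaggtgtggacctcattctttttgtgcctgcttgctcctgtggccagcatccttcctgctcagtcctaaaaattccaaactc
Acsm5 middle region (direct repeat with a spacer of 1), chr7:119522456-119522592: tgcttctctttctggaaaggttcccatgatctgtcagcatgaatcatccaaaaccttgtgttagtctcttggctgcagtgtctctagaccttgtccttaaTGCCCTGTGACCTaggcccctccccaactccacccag
Acsm5 region at exon 1, before the start of the principal transcript, chr7:119526083-119526207: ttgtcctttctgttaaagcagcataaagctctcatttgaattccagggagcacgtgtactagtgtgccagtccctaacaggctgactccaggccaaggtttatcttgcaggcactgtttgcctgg
Acsm1 region (C/EBP), chr7:119620195-119620395: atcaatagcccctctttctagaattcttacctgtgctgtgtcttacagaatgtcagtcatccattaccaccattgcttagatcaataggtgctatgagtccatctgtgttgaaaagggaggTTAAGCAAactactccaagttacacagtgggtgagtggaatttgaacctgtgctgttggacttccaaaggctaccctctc
Acot2 region, before the start, chr12:83987733-83987860: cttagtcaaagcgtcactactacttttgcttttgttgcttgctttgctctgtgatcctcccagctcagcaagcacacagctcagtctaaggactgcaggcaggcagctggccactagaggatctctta
Acot2 to Acot1 region, chr12:83999415-83999585: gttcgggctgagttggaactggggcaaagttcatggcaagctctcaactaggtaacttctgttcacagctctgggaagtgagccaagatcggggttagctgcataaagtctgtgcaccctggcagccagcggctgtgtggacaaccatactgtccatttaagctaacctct

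Acsm5 encodes a medium-chain synthetase of the mitochondrial matrix and had the most RCAs of the 10 genes. The gene lies at chr7:119519463-119545551 on the plus strand, and all 3 of its regions lay inside the gene body, at 2412, 2993 and 6528 bp from its first annotated start. The upstream one, at chr7:119521875-119522196, was 322 bp wide with an area of 352 and a −log10 q of 3.37, the highest of both values among the 8 regions. It was intronic by class, inside the Acsm5 gene body but 4012 bp upstream of the start of the principal Acsm5 transcript. It also lay in the gene body of Pdilt, a protein disulfide isomerase-like gene on the opposite strand whose start was nearer, at 1293 bp. The middle one, at chr7:119522456-119522690, was smaller, with a width of 235 bp and an area of 227. It overlapped an untranslated exon of an alternative Acsm5 transcript and lay 799 bp from the Pdilt start. The one furthest into the gene, at chr7:119525991-119526343, was 353 bp wide with an area of 287, and covered exon 1 of the principal Acsm5 transcript of 14 exons. Its summit was 25 bp upstream of that transcript's start, so it is the region of promoter class at this gene, a class given to any region within 200 bp of an annotated transcript start.

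Few genes held as many. Of 2417 protein-coding genes within 20% of the length of Acsm5, 655 (27.1%) had at least 1 RCA within 10 kb and 81 (3.35%) had at least 3, and over all protein-coding genes the share with at least 3 was 3.82%. By first start the nearest coding gene was Pdilt for all 3 regions. By any annotated transcript start, Pdilt was nearest to the upstream and middle regions only. The region at exon 1 lay on an Acsm5 start, with the Pdilt start 2502 bp away. The count of 3 thus belongs to Acsm5 only where the gene body is the measure.

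Acsm1, at chr7:119607026-119662515 on the plus strand, encodes a mitochondrial synthetase of medium-chain and aromatic acids. It had 1 RCA, at chr7:119620188-119620568, 381 bp wide with an area of 285 and a −log10 q of 2.66. The region lay in intron 1 of the principal transcript and 2390 bp from the nearest Acsm1 start. Its promoter class came from Gm19950, an antisense gene whose start lay within the region and 2 bp from the summit, and not from Acsm1. Its width was at the 64.5th percentile of all RCAs but its −log10 q at the 7.32nd.

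Acsm3, another medium-chain synthetase at chr7:119760923-119787513, had no RCA within 10 kb. An RCA lay just outside, 11.7 kb upstream, with an area of 212. Of genes within 20% of its length, 27.1% had an RCA within 10 kb.

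The peak caller numbered control regions in genomic order, so a number absent from the RCA list was read as a control region that overlapped an Alb-D2KO region and was not listed. By that reading at least 22368 regions were called in control liver, of which 35.9% were listed as RCAs. The full control call was not analysed here, so the reading could not be checked directly. Along the Acsm cluster the numbers from 9423 to 9427 were all listed. These 5 regions span 130 kb, from an intron of Pdilt through the 3 regions of Acsm5 to intron 1 of Acsm1. Between the first of them and the region upstream of Acsm3 lay 5 control regions, 4 of them listed, over 258 kb that hold the first starts of Acsm5, Pdilt, Acsm2, Acsm1, Acsm4 and Thumpd1. Acsm3 lay between 2 RCAs 353 kb apart, with 4 control regions between them. Control regions between neighbouring RCAs, here and at the genes below, are unlisted by definition, so their number only says how many open regions were called in control liver around a gene. Runs of 5 or more consecutive listed numbers held 13.8% of all RCAs, in 172 runs.

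**Figure D1:**
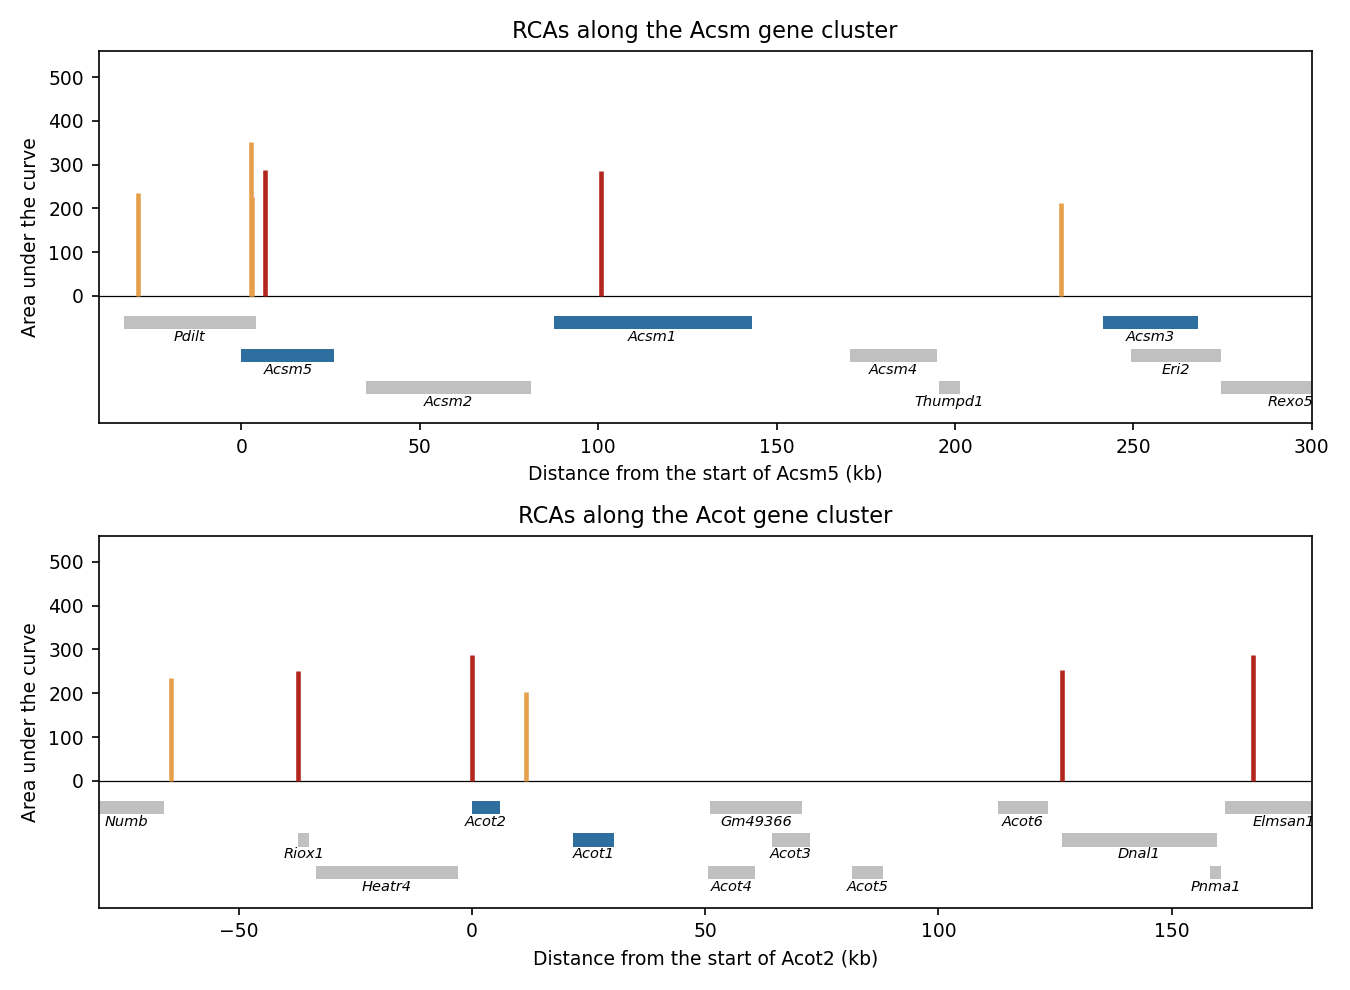
RCAs along the Acsm (top) and Acot (bottom) gene clusters. The x axis is the distance in kb from the first start of Acsm5 or Acot2, the height of each line is the area of 1 RCA (red for promoter class, orange for other classes), and boxes below are protein-coding genes on 3 rows for legibility, with members in blue and others in grey. The 3 regions of Acsm5 stand together, 1 RCA lies in Acsm1, and none lies between the region downstream of Acot2 and the start of Dnal1.

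Acot2 encodes a mitochondrial thioesterase of long-chain acyl-CoA and is a short gene of 6.01 kb, at chr12:83987861-83993873 on the plus strand. Of its 2 RCAs, 1 sat on its start, at chr12:83987733-83988225. That region was 493 bp wide, at the 82.6th percentile of all RCAs, with an area of 287 and a −log10 q of 3.10, and it ran over the start, the 5′ untranslated sequence and coding exon 1, with its summit 30 bp upstream of the start. The other lay at chr12:83999363-83999585 in intergenic sequence, 5490 bp downstream of Acot2 and 9905 bp upstream of Acot1. It was 223 bp wide with an area of 203, close to the smallest area in the list (200.004) and at the 2.76th percentile. Of 2032 genes within 20% of the length of Acot2, 17.2% had at least 1 RCA within 10 kb and 109 (5.36%) had at least 2.

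Acot1, the cytosolic counterpart of Acot2, lies at chr12:84009490-84018371. It was counted only through the intergenic region shared with Acot2, which at 9905 bp fell just inside the limit of 10 kb. The start of Acot1 carried no RCA. Of genes within 20% of its length, 20.7% had an RCA within 10 kb.

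The Acot cluster repeated the pattern of unbroken numbers. Regions 15889 to 15894 were all listed, 6 in a row over 232 kb, at Riox1, Acot2, Dnal1, Elmsan1 and 2 intergenic places. Between the RCA at Riox1 and the one at Dnal1 the control call held 2 regions, the pair described above, over 163 kb. That stretch contains 8 protein-coding starts, those of Heatr4, Acot2, Acot1, Acot4, Gm49366, Acot3, Acot5 and Acot6, and the Acot2 start was the one with a control region on it. By the numbers, then, no open region was called in control liver at the starts of Acot1, Acot3, Acot4, Acot5 or Acot6, so the lack of an RCA there is no statement that their accessibility was equal in both genotypes.

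Genes of the Acot cluster resemble each other in sequence, and the authors removed poorly mapped reads. The 501 bp around the Acot1 start matched Acot6 sequence at 95.04% identity over 242 bp, and those around the Acot4 start matched Acot6 at 97.5% over 204 bp. The intergenic region between Acot2 and Acot1 had 1 near copy, at chr12:84020657-84020871, with 95.8% identity over 216 bp. The RCA at the Acot2 start had a partial match of 93.3% over 195 bp at Acot4. The other 6 regions had no match of this kind in the genome, and whether similar sequence affected the calls was not tested.

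Acot12, the remaining thioesterase, which acts on acetyl-CoA in the cytosol, lies at chr13:91741512-91786148. Its nearest RCA was 122 kb downstream. The control call had 13 regions between the RCAs on either side of Acot12, a stretch of 10539 kb. Its share of similar-length genes with an RCA was 31.3%, the highest of the 10.

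Acsl1, the main long-chain synthetase of liver, serves both oxidation and triglyceride synthesis. It lies at chr8:46471037-46536051 on the plus strand and had 1 RCA, at chr8:46499435-46500138, in intron 2 of its principal transcript of 21 exons. The region lay 28398 bp from the first start and 6603 bp from the nearest alternative Acsl1 start. At 704 bp it was the widest of the 8 and at the 95.8th percentile of all RCAs. Its area of 329 was at the 68.9th percentile, while its −log10 q of 2.47 was the lowest of the 8 and at the 1.39th. Area per base pair was 0.467, against a median of 0.909 over all RCAs, so this region was long and low. A second RCA, with an area of 320, lay 11160 bp downstream of the gene and outside the limit. Between this region and its neighbouring RCAs lay 1 further control region.

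Acsl3, a synthetase of the endoplasmic reticulum and lipid droplets, lies at chr1:78657825-78707743 on the plus strand. Its RCA, at chr1:78649739-78650033, was intergenic and 7792 bp upstream of the start. It was 295 bp wide with an area of 267 and a −log10 q of 3.003, each somewhat under the median of all RCAs. Acsl3 was the nearest coding gene. The numbers before it, 416 and 417, were also listed, and 6 control regions lay between it and the next RCA.

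Acsl4 and Acsl5 had no RCA within 10 kb. Acsl4, which prefers arachidonate and other polyunsaturated acids, lies on the X chromosome at chrX:142317993-142390535 on the minus strand, and its nearest RCA was 1166 kb downstream. The X chromosome held 40 RCAs, 0.498% of the list. A single control region lay between the RCAs flanking Acsl4, over 9326 kb, so few open regions were called around it in control liver. Acsl5, a synthetase of mitochondria and endoplasmic reticulum at chr19:55251938-55297720, differed from Acsl4 in that an RCA with an area of 242 lay 19.4 kb upstream. Between its flanking RCAs lay 4 control regions over 313 kb. Genes within 20% of their lengths had an RCA within 10 kb in 31.2% (Acsl4) and 30.9% (Acsl5) of cases.

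**Figure D2:**
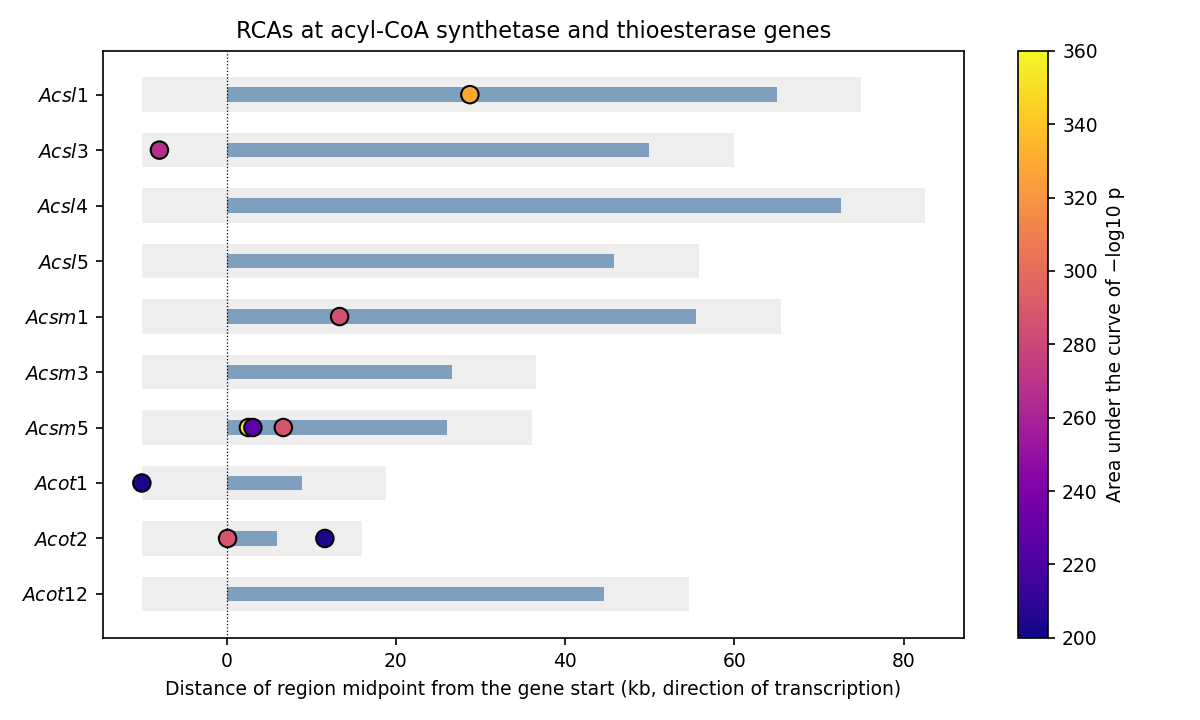
Position of the RCAs at the 10 genes. The x axis is the distance in kb of the midpoint of each RCA from the first start of the gene in the direction of transcription, blue bars are gene bodies, grey bars add 10 kb on each side, and the colour of a point is its area. The point of Acsl1 lies furthest from its start, deep in the gene, and 4 genes have none. The midpoint of the point at Acot1 lies just outside the grey bar, because the limit was measured to the edge of the region.

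The 10 genes are long, with a median of 45.2 kb against 17.4 kb for all protein-coding genes, and 8 are above that median. Length bears on the count because a longer gene offers more sequence. Over all 10443 protein-coding genes within 20% of the length of any of the 10, 25.3% had an RCA within 10 kb. Weighting each of the 10 equally, the shares of similar-length genes average 27.7%, which add up to 2.77 genes of 10 where 6 were counted, and their mean numbers of regions add up to 4.42 where 9 pairs were counted. Per sequence, the 10 windows held 13.4 regions per Mb over 0.597 Mb, against 4.99 per Mb over the windows of all protein-coding genes. By the gene body alone, 4 of the 10 had an RCA (Acsl1, Acsm1, Acsm5 and Acot2) against 15.8% of all protein-coding genes, a share not matched for length. The 10 genes are not independent of each other, since Acsm1, Acsm3 and Acsm5 share one cluster and Acot1 and Acot2 another, and 6 of the 8 regions came from these clusters. The genes compared were matched at most on length, and not on the open regions called in control liver. No test was made of these differences.

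**Figure D3:**
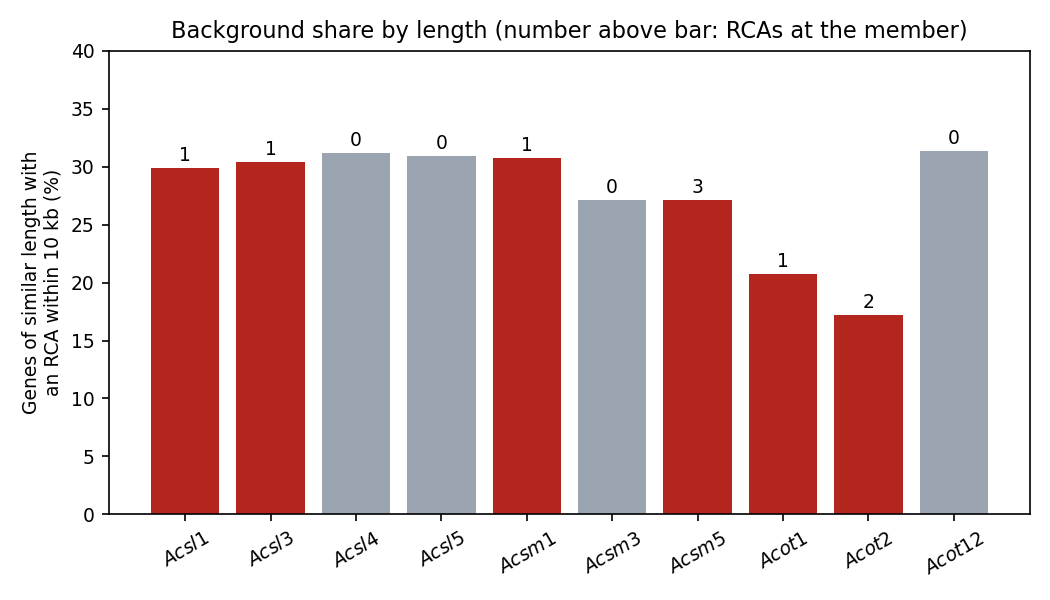
Share of protein-coding genes of similar length with an RCA. Each bar is the percentage of genes within 20% of the length of the named gene that had at least 1 RCA within 10 kb, red where the named gene itself had one and grey where it had none, with its own number of RCAs above the bar. The bars range from 17.2% for Acot2 to 31.3% for Acot12, and the genes with RCAs are not those with the highest shares.

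By class, 3 of the 8 regions were promoter, 1 exon, 2 intron and 2 intergenic. Over the whole list 19.4% were promoter, 10.2% exon, 40.04% intron and 30.3% intergenic. A promoter-class RCA lay within 10 kb of 3 of the genes, Acsm1, Acsm5 and Acot2, against 9.58% of protein-coding genes, and for Acsm1 the start belonged to the antisense gene. In RefSeq, all 10 genes matched promoter entries, 11 in all, of 250 bases before to 50 after a start. RCAs overlapped 2 of these, those of Acot2 and Acsm5, against 3.15% of 32619 entries.

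In size the 8 regions lay within the range of the list and near its medians. Their median area was 286, with a range of 203 to 352, against a median of 278 and quartiles of 232 and 351 over all RCAs. Areas under 300 made up 6 of the 8, and 59.2% of the list. Median width was 337.5 bp against 326, and median −log10 q was 3.05 against 3.14. Within the 8, the regions at Acsm5 and Acsl1 had the highest areas, and those between Acot2 and Acot1 and at the middle Acsm5 position the lowest.

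**Figure D4:**
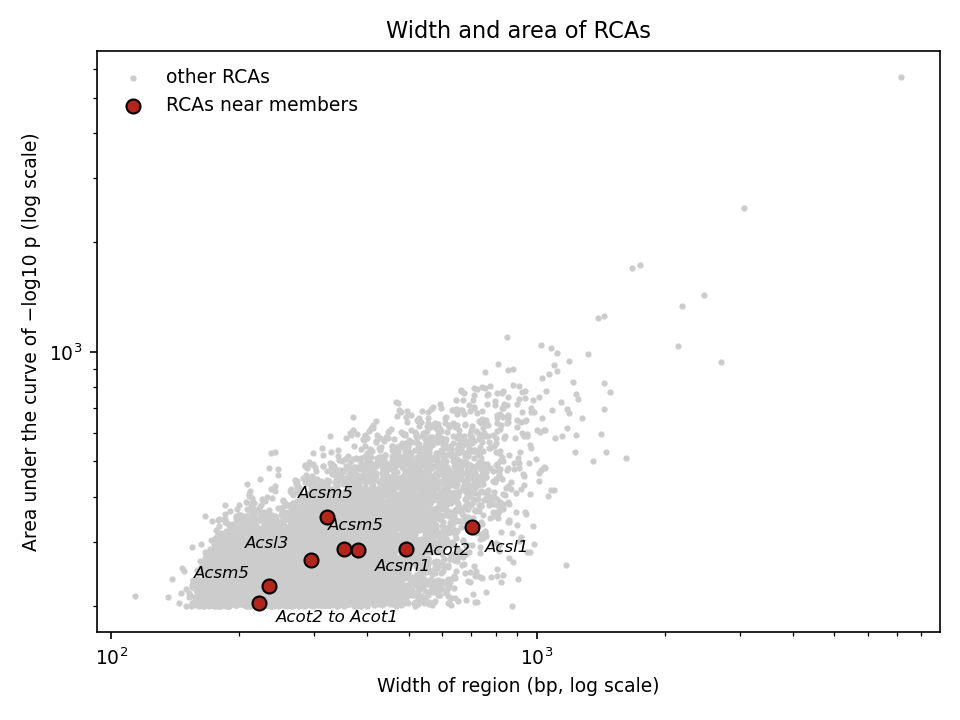
Width and area of all RCAs on log axes. Grey points are RCAs away from the 10 genes and red points the 8 regions near them, labelled by gene. The red points lie within the cloud of grey ones, Acsl1 toward its wide and low edge and the region from Acot2 to Acot1 at its lower edge.

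Base composition varied widely among the 8 regions. GC content ran from 41.2% in the Acsm1 region, at the 3.02nd percentile of RCAs, to 63.9% in the region at the Acot2 start, at the 90.3rd. The ratio of observed to expected CpG was 0.994 in the Acot2 region, and 0 both in the Acsm1 region and in the middle Acsm5 region. The Acsm5 region at exon 1 also lies on a start, yet its ratio was 0.045, so the regions on the Acot2 and Acsm5 starts differed in CpG content. Median GC content of the 8 was 50.3%, against 51.9% for the list.

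Motifs were searched as plain letters on both strands in the 8 regions and in the 8019 RCAs of chromosomes 1 to 19 and X. A direct repeat of AGGTCA with 1 base between the copies, the PPAR type of element, was allowed 1 mismatch. It was found in 1 of the 8 regions, against 2.67% of RCAs, and in 1 of the 8 windows of 201 bp at the summits, against 1.96%. The match lies on the minus strand and reads TGCCCTGTGACCT on the plus strand, at chr7:119522556-119522568 in the middle Acsm5 region. It is centred 19 bp from the summit and contains the region's single exact AGGTCA word, which reads TGACCT on the plus strand. A repeat with 4 bases between the copies, the thyroid hormone receptor type, was found in none of the 8 with up to 1 mismatch, and in 0.786% of RCAs. The single word AGGTCA was in 2 of the 8 (Acsl1 and the middle Acsm5 region) against 34.5%.

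Of the other words, CCAAT (NF-Y) was in 4 of the 8 (Acsl3, Acot2 and 2 regions of Acsm5) against 36.7%, and TTGCNNAA (C/EBP) in 1, 24 bp from the summit in Acsm1, against 20.9%. AGGGGGC, part of the CTCF motif, was in 2, Acsl1 and the Acsm5 region at exon 1, against 11.0%, and in none of the 8 windows at the summits, against 7.87% of windows. In those windows CCAAT was in 2 against 23.5%, TTGCNNAA in 1 against 14.4%, and AGGTCA in 1 against 23.8%. GGGCGG (SP1), TGTTTAC (FOXA) and CAAAGTCCA (HNF4A) were in none, against 20.9%, 7.63% and 2.97%. Among the RefSeq promoters, 1 of the 11 held the direct repeat with a spacer of 1, against 0.558% of all entries. That was Acot12, with TGACCTCTCACCT beginning at -110 from the start, a gene with no RCA. A match of letters is a description of the sequence and says nothing of binding.

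Among 31 other genes of the same families, 11 (35.5%) had an RCA within 10 kb, where the shares of similar-length genes add up to 8.31 genes. RCAs numbered 3 each at Aacs, a cytosolic acetoacetyl-CoA synthetase, at Slc27a1, a fatty acid transport protein with synthetase activity, and at Acot7, a thioesterase known best from brain. Inside the gene itself lay 2 of those at Aacs, 1 of those at Acot7 and none of those at Slc27a1. Of all protein-coding genes, 3.82% had at least 3 within 10 kb. The largest area at these 3 genes was 489, in Acot7, above any at the 10 genes. They numbered 2 each at Slc27a2, Slc27a5 and Acot11. Slc27a2 activates very long chains and had areas of 201 and 417. Slc27a5 activates bile acids and had areas of 390 and 409, both inside the gene. Acot11, a long-chain thioesterase, had 452 and 303. They numbered 1 each at Acss1, a mitochondrial acetyl-CoA synthetase (area 253), at Slc27a4 (220), at Acot6 (254), at Baat, which conjugates bile acids (286), and at Them4 (230). The Acot6 region is the one at the Dnal1 start, 2866 bp downstream of Acot6. Them6 was the gene of the 31 with a region of the Alb-D2KO list.

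**Figure D5:**
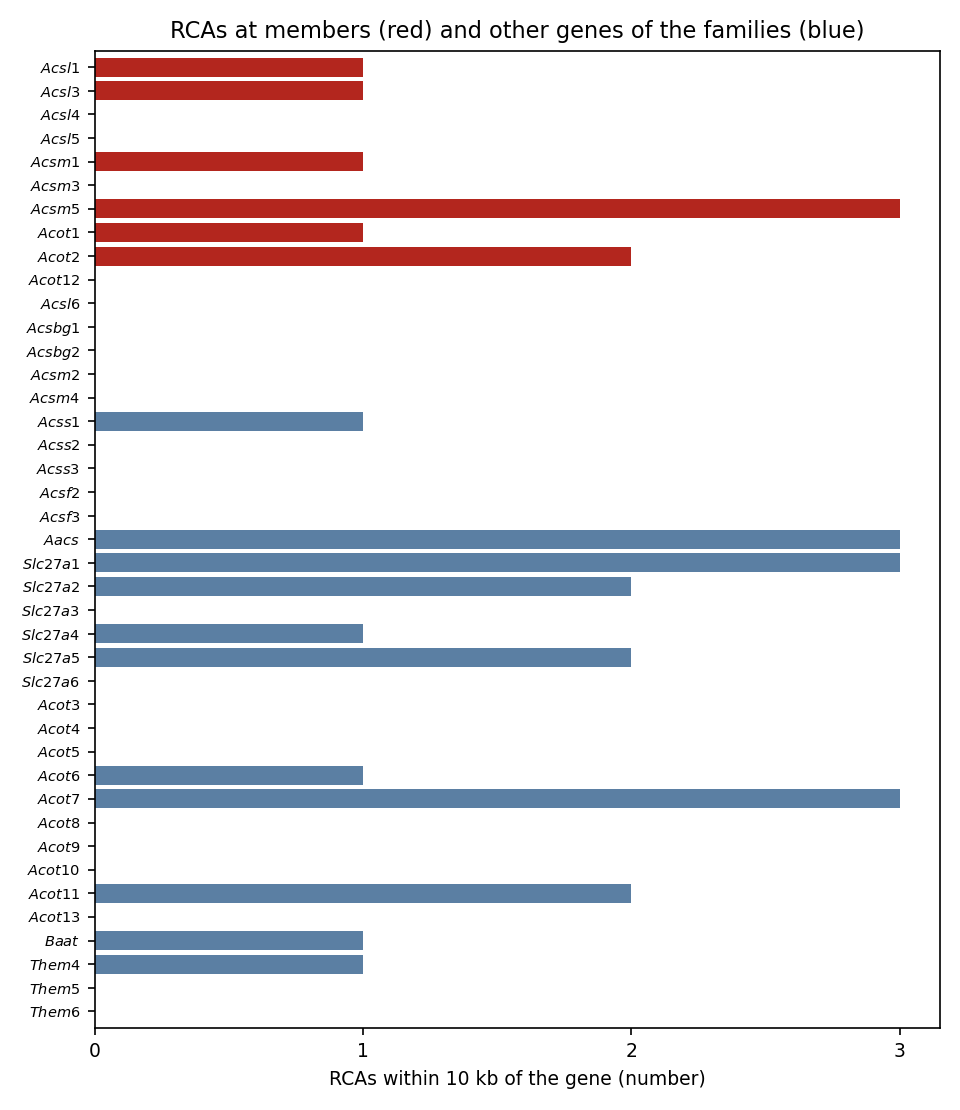
Number of RCAs within 10 kb of each gene, for the 10 genes (red) and 31 other genes of the acyl-CoA synthetase and thioesterase families (blue). Counts run from 0 to 3, with 3 at Acsm5, Aacs, Slc27a1 and Acot7, and most genes of both groups are at 0 or 1.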

How the data were processed

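Liver ATAC-seq libraries (4 control, 4 Alb-D2KO) were aligned by the authors to mm10 with BWA 0.7.17, filtered for duplicate and poorly mapped reads, and called on grouped libraries with Genrich 0.6. In the deposited lists the signal is the area under the −log10 p curve, the score is that area per base pair times 1000 up to a ceiling, and the −log10 q is the summit's. Another deposited column gives summit positions.

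The 10 genes, the 31 related genes and the motifs were chosen with earlier results of these data known. The text names the 10 genes, related genes with a region, and coding genes at a counted region. Others (Riox1, Dnal1, Elmsan1 and genes within stretches) were named after their values were seen. Genes came from GENCODE M21 (GRCm38, not the authors' release) and were compared within 20% of length. Classes were the first met of promoter (200 bp), exon, intron and intergenic. Copies (95% identity over 80% of length) were sought with blastn 2.17.0. In simulated data, all 200 regions placed inside or outside the window were called correctly, and all 200 placed at starts were classed as promoter. No test was run. Depth is unknown.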

Additional observations from a re-analysis of the deposited data

How the results depend on the processing

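No paired analysis was possible because each list comes from 1 call on grouped libraries, and for the same reason no replicate could be left out. The 8 regions became 2 with an area of at least 300 (Acsl1 and Acsm5), 5 with a −log10 q of at least 3, and 5 when a region had to have the first start of one of the genes as its nearest coding start. The 6 genes with an RCA became 2 with an area of at least 300 and 3 with a −log10 q of at least 3 (Acsl3, Acsm5 and Acot2), where the shares of all protein-coding genes became 13.0% and 19.8%. The 3 promoter-class regions became 5 with a promoter window of 3000 bp. For the gene counts, the shares of similar-length genes added up to 2.77 of 10 without a limit. They added up to 1.38 with the area limit and 2.10 with the −log10 q limit. What lay behind these changes was not tested. Limits of 5 and 20 kb, the gene body alone, merging and region midpoints gave 6 to 11 regions and 4 to 8 genes, within 1.5 times the counts given. For the gene body alone the share of all protein-coding genes was 15.8%. It was not computed for the other settings of this kind, so whether the difference from that share held there is not known. The average share of similar-length genes was 28.0% with a length band of 10% and 27.3% with 50%. Only genes on the same chromosome gave a lower share, 23.5%. The median area stayed between 285 and 287, and the count of Alb-D2KO-list regions at 0. Depth per library is unknown, so a region missing from a list may be closed or undetected.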
